A study of Mus musculus with 6 samples.

Results

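The genes described here are 48 named genes of the cell cycle and DNA replication, chosen by name and sorted by the phase in which their products act. Of the 48, 46 were measured by a transcript cluster of their own, among 19938 genes in all. They comprised 9 genes of G1 and its checkpoint, 17 genes of S phase and 20 genes of G2 and mitosis. The G1 member Cdkn1a, whose cluster is shared with other genes, and the G2/M member Ccnb1 were not analysed here. The question was whether these genes differed between Renca tumors growing in the kidney and Renca tumors growing under the skin.

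Renca is an established renal carcinoma line that arose in BALB/c mice, so kidney is the organ of origin. The intrakidney group was 3 tumors from cells placed in the outer cortex of the kidney, and the subcutaneous group was 3 tumors from cells placed under the skin. Each tumor came from a separate BALB/c mouse and was taken on day 12, and the labels name no treatment. Total RNA of whole tumors was hybridized to Affymetrix Mouse Gene 1.0 ST arrays, 1 array per tumor. A whole tumor holds host cells as well as Renca cells, so fewer cells of a type and less RNA per cell cannot be told apart. Values are log2 expression values, listed for tumors 1, 2 and 3 of each site, and each difference is intrakidney minus subcutaneous on that log2 scale.

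In a dividing cell, D-type cyclins with the kinases CDK4 and CDK6 relieve the block that RB-family proteins place on E2F transcription factors. Inhibitors such as p27, made from Cdkn1b, oppose cyclin-dependent kinases (CDKs). E2F factors then switch on the genes of S phase, which license origins, unwind and copy DNA and make nucleotides. The genes of G2 and mitosis follow later, through MuvB complexes with B-Myb and FoxM1, which act at a promoter element named the cell cycle homology region, and through NF-Y at CCAAT boxes. RNA of these genes is used in tumors as a measure of how many cells are cycling.

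The choice of genes did not use their promoters. The motifs searched are the elements known for genes of these phases, so matches in such genes are no independent finding. Windows of 300 bases, from 250 before to 50 after the annotated start (RefSeq, GRCm38.p6), were held for 38 of the 48 genes. Each was searched on both strands for TTTGAA, the core of the cell cycle homology region, for CCAAT, and for the E2F motifs TTTCGCGC, TTTGGCGC, TTTCCCGC, GGCGGGAA and TTCGCGC, of which TTCGCGC lies inside TTTCGCGC. TTTGAA lay in 11 of 16 G2/M genes (68.8%), in 2 of 14 S phase genes (14.3%) and in 0 of 8 G1 genes, against 20.2% of all 27025 genes with a promoter. An E2F motif lay in 8 of 14 S phase genes (57.1%), in 1 of 16 G2/M genes (6.25%) and in 2 of 8 G1 genes (25%), against 5.33% of all genes. CCAAT lay in 14 of 16 G2/M genes (87.5%), in 9 of 14 S phase genes (64.3%) and in 5 of 8 G1 genes (62.5%), against 41.1% of all genes. These shares count a gene where any of its windows matched. With only the first window of each gene, CCAAT lay in 2 of 8 G1 genes (25%), against 37.9% of all genes. The G2/M and S phase shares of CCAAT did not change. The 15 TTTGAA matches of G2/M genes had a median position of -18 relative to the start, 10 of them lay within 50 bases of it, and 12 read on the gene's strand. These matches are descriptions of letters in a window and were not tested. No window was used here for Ccnd1, Ccnd2, Ccne2, Gmnn, Mcm4, Ccna2, Aurkb, Kif20a, Tpx2 or Foxm1.

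**Figure D1:**
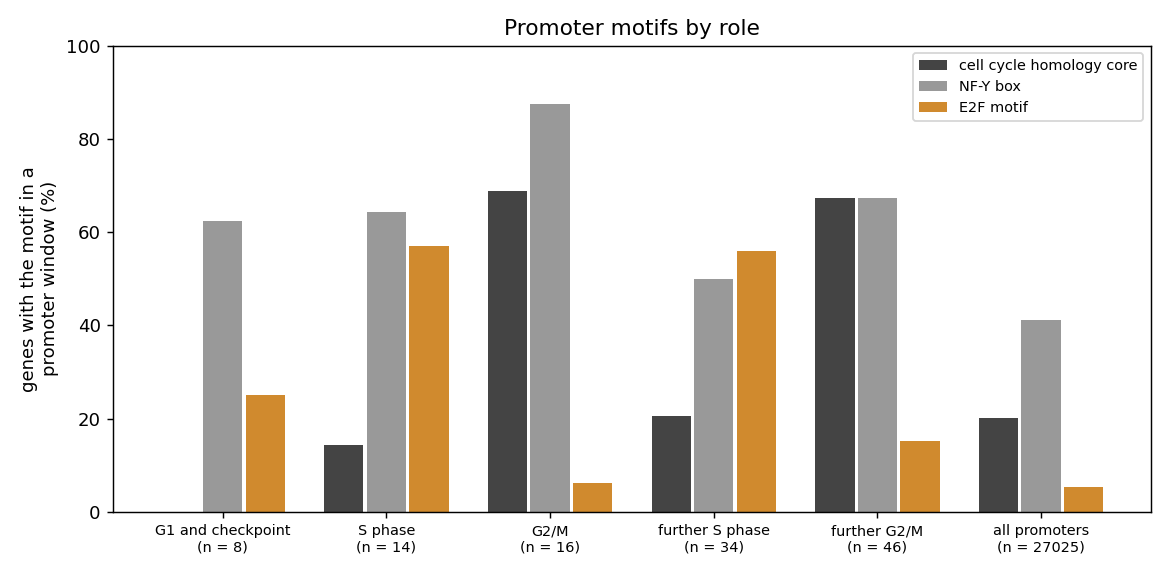
Share of genes (percent, vertical axis) with at least 1 match to each of 3 kinds of promoter motif, by gene list. The core of the cell cycle homology region lies in 68.8% of G2/M genes, against 20.2% of all genes, and an E2F motif lies in 57.1% of S phase genes, against 5.33%.

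The promoters below belong to the S phase genes and the G2/M genes with the lowest unadjusted p between the sites, and they show where the motifs fall. They are read 5′ to 3′ on the gene's strand, and capitals mark the motif matches, with ATTGG standing for CCAAT on the opposite strand. Rrm2 lies at chr12:24708004-24708303 on the plus strand, with CCAAT at -50. Cdt1 lies at chr8:122567765-122568064 on the plus strand, with TTTGGCGC at 33 after the start. Cdk1 lies at chr10:69352863-69353162 on the minus strand, with TTTGAA at -71 and -15, TTTCGCGC at -131 and 3 CCAAT matches. Cdc20 lies at chr4:118437294-118437593 on the minus strand, with TTTGAA at -18 between CCAAT at -53 and -8.
Rrm2: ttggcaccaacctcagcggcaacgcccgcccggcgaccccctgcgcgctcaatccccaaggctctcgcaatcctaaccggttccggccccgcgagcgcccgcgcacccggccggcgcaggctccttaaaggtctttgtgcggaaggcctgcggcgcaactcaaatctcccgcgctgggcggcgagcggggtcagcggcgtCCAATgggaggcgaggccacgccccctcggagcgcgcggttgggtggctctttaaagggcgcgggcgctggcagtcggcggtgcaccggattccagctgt
Cdt1: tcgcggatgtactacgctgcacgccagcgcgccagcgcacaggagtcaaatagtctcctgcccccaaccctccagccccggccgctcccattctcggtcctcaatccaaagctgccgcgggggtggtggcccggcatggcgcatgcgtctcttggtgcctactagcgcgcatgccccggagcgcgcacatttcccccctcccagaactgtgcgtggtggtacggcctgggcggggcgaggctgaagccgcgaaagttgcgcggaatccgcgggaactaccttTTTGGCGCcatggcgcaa
Cdk1: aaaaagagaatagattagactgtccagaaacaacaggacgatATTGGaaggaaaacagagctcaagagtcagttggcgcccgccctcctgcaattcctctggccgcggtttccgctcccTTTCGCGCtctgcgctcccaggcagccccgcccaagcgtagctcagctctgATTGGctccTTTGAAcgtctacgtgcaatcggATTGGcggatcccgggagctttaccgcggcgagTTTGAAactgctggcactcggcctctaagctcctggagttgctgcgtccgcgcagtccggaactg
Cdc20: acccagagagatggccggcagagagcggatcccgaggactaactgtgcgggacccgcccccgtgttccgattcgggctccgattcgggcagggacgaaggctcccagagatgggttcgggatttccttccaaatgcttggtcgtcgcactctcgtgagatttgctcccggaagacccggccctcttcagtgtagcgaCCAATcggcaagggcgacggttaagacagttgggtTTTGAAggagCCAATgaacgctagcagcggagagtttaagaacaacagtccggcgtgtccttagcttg

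Between the sites, the whole set was close to level. The median difference over the 46 genes was 0.010, beside -0.0058 over all genes, with 27 genes above 0 and 19 below. None of the 46 passed an adjusted p of 0.05 in limma, where 0.231% of all genes passed, and the smallest adjusted p was 0.117. At an unadjusted p under 0.05, 5 genes lay higher in intrakidney tumors (10.9%, against 4.72% of all genes) and 1 lay lower (2.17%, against 3.71%). The 3 intrakidney values lay wholly above the 3 subcutaneous values for 8 genes (17.4%, against 8.41% of all genes) and wholly below for 1 gene (2.17%, against 6.53%). The higher 8 were Ccnd1, Ccnd2, Cdk4, Cdt1, Mcm2, Rrm2, Cdk1 and Cdc20, and the lower 1 was Rrm1.

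**Figure D2:**
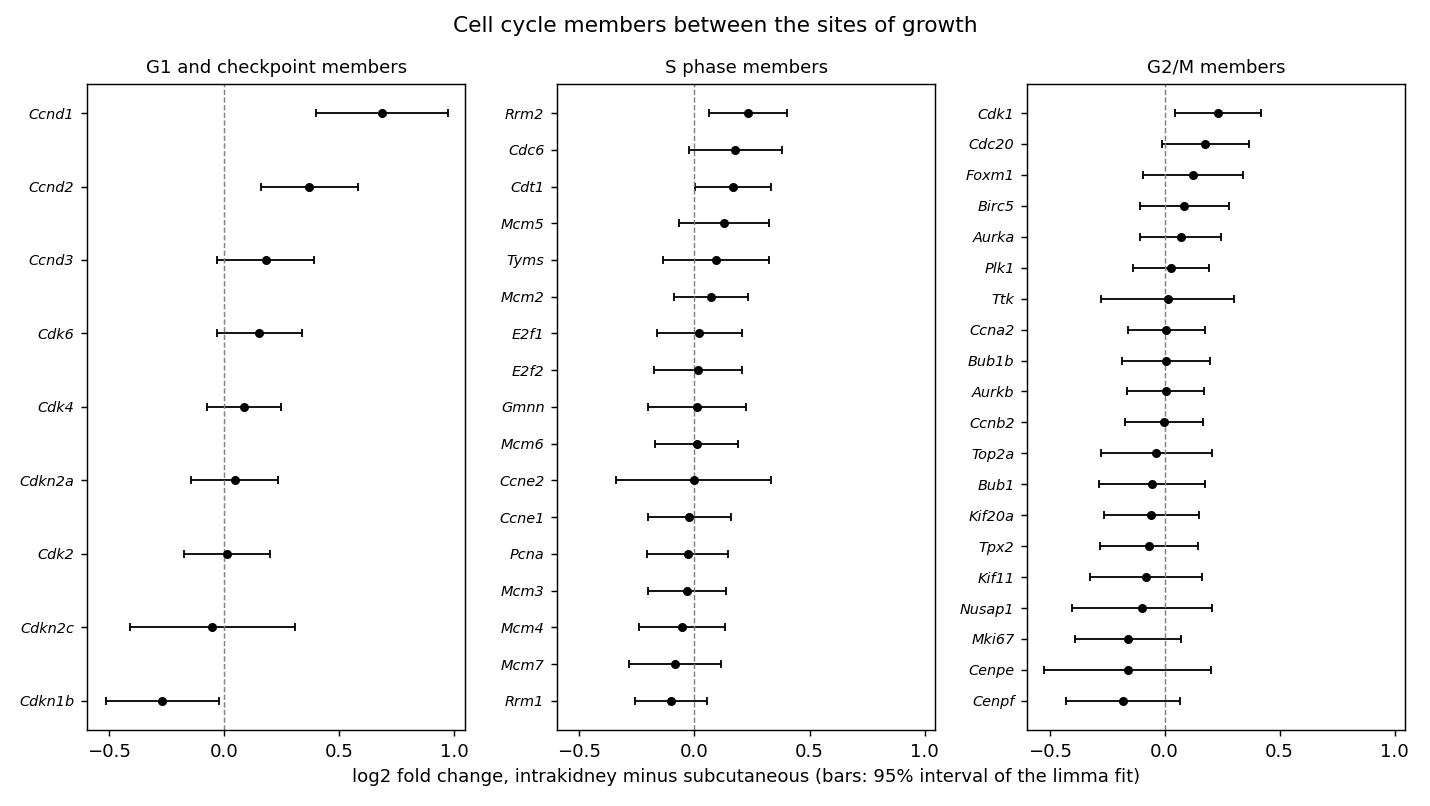
Difference in log2 value, intrakidney minus subcutaneous (horizontal axis), for each of 46 genes, with bars for the 95% interval of the limma fit, in panels for G1, S phase and G2/M. Ccnd1 stands apart at 0.68, while S phase genes run from -0.10 to 0.23 and G2/M genes from -0.18 to 0.23.

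Of the 46 genes, the 3 with the largest difference in size were the G1 genes Ccnd1, Ccnd2 and Cdkn1b. Ccnd1, which encodes cyclin D1, measured 11.74, 11.76 and 11.81 in intrakidney tumors, against 10.91, 10.97 and 11.37 in subcutaneous tumors. The intrakidney tumors lay close together and above every subcutaneous tumor, of which tumor 3 was the highest. The mean was 11.77 ± 0.04 in intrakidney tumors and 11.09 ± 0.25 in subcutaneous tumors (SD, n = 3 each), a difference of 0.68 (SE 0.12, 95% interval 0.40 to 0.97) or 1.61-fold. The limma adjusted p was 0.117, which misses the threshold. It passed when an intensity trend and a robust prior were used together (limma adjusted p = 0.0178). It also passed when arrays were weighted (difference 0.79, limma adjusted p = 0.00814). The weights were uneven, from 0.35 for intrakidney tumor 1 to 3.55 for subcutaneous tumor 2. Intrakidney tumor 3 had a weight of 2.57 and subcutaneous tumor 3 a weight of 0.61. Over all alternatives the adjusted p ran from 0.00814 to 0.562.

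Ccnd2, which encodes cyclin D2, measured 9.06, 8.98 and 9.17 in intrakidney tumors, against 8.67, 8.60 and 8.84 in subcutaneous tumors. The groups again did not overlap, with a difference of 0.37 (SE 0.09, 95% interval 0.16 to 0.58, limma adjusted p = 0.265), or 1.29-fold. With array weights it was 0.49 (adjusted p = 0.0207), and over all alternatives the adjusted p ran from 0.0207 to 0.890. Ccnd3, the remaining D cyclin, measured 8.67, 8.80 and 8.89 in intrakidney tumors, against 8.55, 8.74 and 8.55 in subcutaneous tumors. These groups overlapped, and the difference of 0.18 had an interval of -0.03 to 0.39 (limma adjusted p = 0.683). Between the sites, 5 of 17 fibroblast and matrix genes fell and 1 of 8 endothelial genes rose in intrakidney tumors at an adjusted p under 0.05. Of all 19938 genes, 20 fell and 26 rose at that threshold. The fibroblast list was not uniform, since 14 of its genes lay below 0 and 3 above, among them Fn1 at 0.98 (limma adjusted p = 0.0953). Fibroblast genes averaged 9.12, 9.03 and 9.48 in intrakidney tumors, against 9.70, 9.64 and 9.59 in subcutaneous tumors, and endothelial genes averaged 8.53, 8.51 and 8.50 in intrakidney tumors, against 8.26, 8.11 and 8.27 in subcutaneous tumors. Their part in the D cyclin values was not tested.

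Among the kinases that these cyclins bind, Cdk6 measured 10.96, 10.84 and 10.76 in intrakidney tumors, against 10.77, 10.68 and 10.65 in subcutaneous tumors. The difference was 0.15 (interval -0.03 to 0.34, limma adjusted p = 0.690), and 1 subcutaneous tumor reached the intrakidney range. Cdk4 averaged 12.83 ± 0.07 in intrakidney tumors and 12.74 ± 0.01 in subcutaneous tumors (SD, n = 3 each). The groups did not overlap but nearly met, with the lowest intrakidney value at 12.753 and the highest subcutaneous value at 12.751. The Cdk4 difference of 0.09 had an interval of -0.07 to 0.25. Cdk2, the partner of cyclins E and A, differed by 0.01 (interval -0.17 to 0.20).

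The inhibitors ran the other way or near level. Cdkn1b, which encodes p27, measured 9.59, 9.54 and 9.65 in intrakidney tumors, against 10.02, 9.92 and 9.65 in subcutaneous tumors. The tumors numbered 3 met at 9.65, and the other subcutaneous tumors lay above all intrakidney tumors. The difference was -0.27 (SE 0.11, interval -0.52 to -0.02), with an unadjusted p of 0.0351 and a limma adjusted p of 0.549. A second, dimmer Cdkn1b cluster measured 8.88, 8.19 and 8.25 in intrakidney tumors, against 9.23, 8.98 and 8.58 in subcutaneous tumors. Cdkn2a, which encodes p16Ink4a and p19Arf, measured 9.92, 10.04 and 9.86 in intrakidney tumors, against 9.94, 9.94 and 9.80 in subcutaneous tumors. Its difference was 0.04 (interval -0.14 to 0.23), and its cluster does not separate the 2 products. Cdkn2c, which encodes p18Ink4c, differed by -0.05 (interval -0.41 to 0.31).

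**Figure D3:**
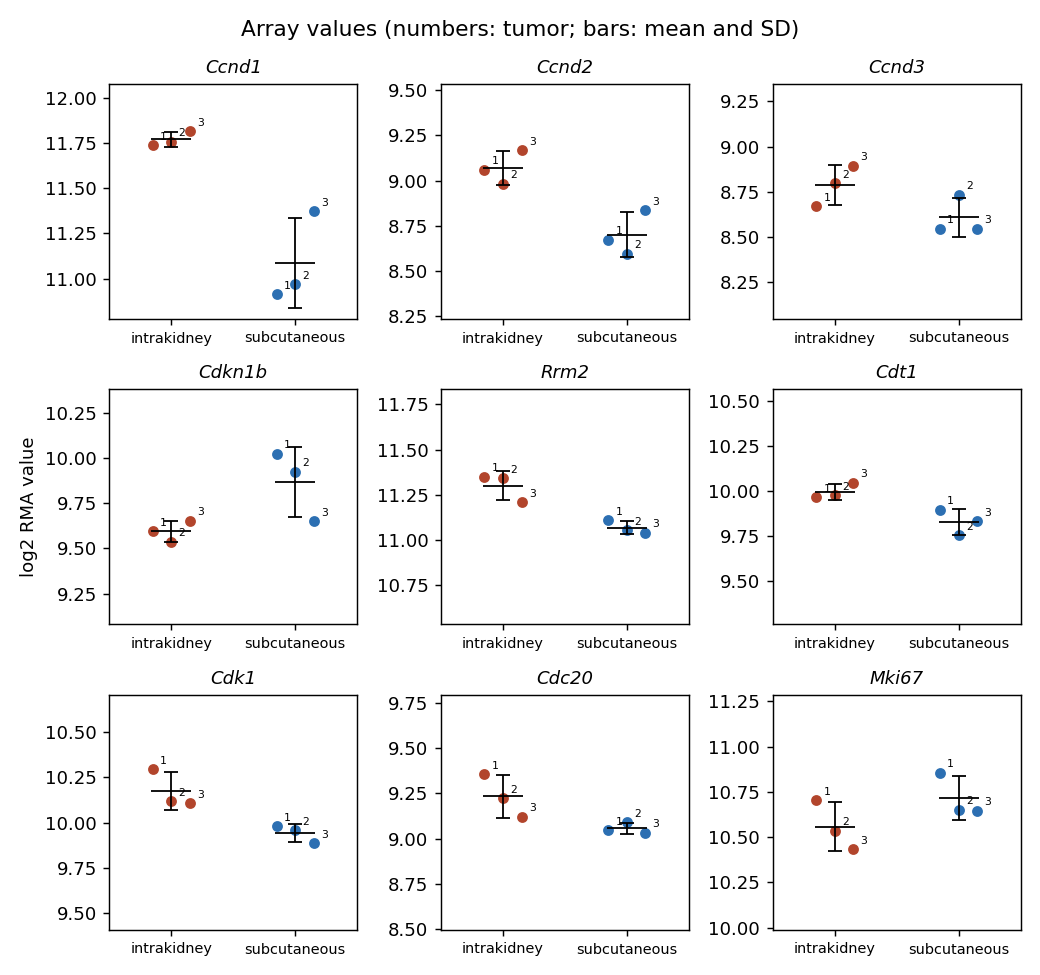
Log2 value (vertical axis) of 9 genes in each tumor, intrakidney left and subcutaneous right, with tumor numbers and bars for mean and SD. The 3 intrakidney values lie above the 3 subcutaneous values for Ccnd1, Ccnd2, Rrm2, Cdt1, Cdk1 and Cdc20, and the sites overlap for Ccnd3, Cdkn1b and Mki67.

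The S phase genes had a median difference of 0.010 over 17 genes, 10 above 0 and 7 below. Their mean per array was 10.02 ± 0.06 in intrakidney tumors and 9.99 ± 0.03 in subcutaneous tumors (SD, n = 3 each). Rrm2, the regulated subunit of ribonucleotide reductase, whose promoter is printed above, measured 11.35, 11.34 and 11.21 in intrakidney tumors, against 11.11, 11.05 and 11.04 in subcutaneous tumors. The groups did not overlap, and the difference was 0.23 (SE 0.07, interval 0.06 to 0.40, limma adjusted p = 0.419). Its partner subunit Rrm1 lay the other way, at 11.22, 11.17 and 11.12 in intrakidney tumors, against 11.31, 11.28 and 11.23 in subcutaneous tumors. That difference was -0.10 (interval -0.26 to 0.06, limma adjusted p = 0.772), also without overlap.

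Of the genes that license origins, Cdt1, which loads the MCM helicase, measured 9.96, 9.98 and 10.05 in intrakidney tumors, against 9.90, 9.76 and 9.83 in subcutaneous tumors. The groups did not overlap, with a difference of 0.17 (unadjusted p = 0.0499, limma adjusted p = 0.591). Cdc6, which loads the helicase together with Cdt1, measured 9.36, 9.28 and 9.34 in intrakidney tumors, against 9.29, 9.02 and 9.15 in subcutaneous tumors. Here 1 subcutaneous tumor reached the intrakidney range, and the difference of 0.18 had an interval of -0.02 to 0.38 (limma adjusted p = 0.663). Gmnn, which encodes the Cdt1 inhibitor geminin, differed by 0.01.

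The 6 subunits of the MCM helicase gave no common direction. Mcm2 measured 10.43, 10.53 and 10.42 in intrakidney tumors, against 10.41, 10.35 and 10.41 in subcutaneous tumors, a difference of 0.07 (interval -0.09 to 0.23, limma adjusted p = 0.871) without overlap. Mcm5 measured 9.97, 9.91 and 9.82 in intrakidney tumors, against 9.70, 9.72 and 9.89 in subcutaneous tumors, and its difference of 0.13 had an interval of -0.07 to 0.32 (limma adjusted p = 0.760). Mcm6 differed by 0.01, Mcm3 by -0.03, Mcm4 by -0.05 and Mcm7 by -0.08.

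Pcna, the sliding clamp of the replicating polymerases, measured 12.74, 12.61 and 12.56 in intrakidney tumors, against 12.67, 12.69 and 12.64 in subcutaneous tumors. The subcutaneous tumors lay inside the intrakidney range, and the difference was -0.03 (interval -0.20 to 0.15). Tyms, which makes thymidylate, differed by 0.09. The cyclins E, which open S phase with CDK2, and the transcription factors E2f1 and E2f2 differed by at most 0.02 in either direction. The widest interval in S phase was that of Ccne2, from -0.34 to 0.33.

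The G2/M genes had 10 differences above 0 and 10 below, with a median of 0.0017. Their mean per array was 9.50 ± 0.13 in intrakidney tumors and 9.51 ± 0.05 in subcutaneous tumors (SD, n = 3 each). Cdk1, the kinase that drives entry into mitosis, measured 10.29, 10.12 and 10.11 in intrakidney tumors, against 9.98, 9.96 and 9.89 in subcutaneous tumors. The groups did not overlap, and the difference was 0.23 (SE 0.08, interval 0.05 to 0.42, limma adjusted p = 0.463). Cdc20, which activates the anaphase-promoting complex, measured 9.36, 9.22 and 9.12 in intrakidney tumors, against 9.05, 9.09 and 9.03 in subcutaneous tumors. It did not overlap either, at 0.18 (interval -0.01 to 0.37, limma adjusted p = 0.630).

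The common markers of proliferation did not share that direction. Mki67, which encodes the Ki-67 antigen, measured 10.70, 10.54 and 10.43 in intrakidney tumors, against 10.86, 10.65 and 10.65 in subcutaneous tumors. The sites overlapped, and the difference was -0.16 (SE 0.10, interval -0.39 to 0.07, limma adjusted p = 0.743). Top2a, the topoisomerase that untangles sister chromatids, measured 11.14, 10.90 and 10.80 in intrakidney tumors, against 11.06, 10.87 and 11.01 in subcutaneous tumors. That difference was -0.04 (interval -0.28 to 0.21, limma adjusted p = 0.969), so a difference of more than 0.28 in either direction lay outside the interval.

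Cenpf, a kinetochore protein, measured 8.27, 7.98 and 7.92 in intrakidney tumors, against 8.34, 8.20 and 8.18 in subcutaneous tumors, at -0.18 (interval -0.43 to 0.07). Foxm1, the transcription factor of G2/M genes, measured 8.33, 8.36 and 8.09 in intrakidney tumors, against 8.18, 8.06 and 8.18 in subcutaneous tumors, at 0.12 (interval -0.10 to 0.34). Both overlapped between the sites. The mitotic cyclins Ccna2 and Ccnb2 differed by 0.01 and by less than 0.01 in size, and the mitotic kinases Plk1, Aurka, Aurkb, Bub1 and Ttk ran from -0.06 to 0.07. The checkpoint kinase gene Bub1b and the survivin gene Birc5 differed by 0.01 and 0.09. The spindle motors and microtubule proteins Kif11, Kif20a, Tpx2 and Nusap1 ran from -0.10 to -0.06, and the kinetochore motor Cenpe had the widest interval, from -0.52 to 0.20.

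Within the intrakidney group, the G2/M genes followed 1 order of tumors. Among the intrakidney tumors, 17 of 20 were highest in tumor 1 and lowest in tumor 3 (85%), against 16.1% of all genes and 21.5% of genes outside the dimmest 40%. All 20 were higher in intrakidney tumor 1 than in intrakidney tumor 3, by a median of 0.26 and a range of 0.022 to 0.62, against 47.3% of all genes and 59.3% of genes outside the dimmest 40%. The range over the 3 tumors of a site was wider in intrakidney tumors than in subcutaneous tumors for 19 of 20 genes, with a median of 0.27 in intrakidney tumors and 0.11 in subcutaneous tumors. For all genes the share was 59.2%. Of S phase genes, 9 of 17 showed the order (52.9%). The higher value in intrakidney tumor 1 than in intrakidney tumor 3 was shared by 14 of 17 S phase genes (82.4%). The order was singled out after the values were seen, the genes of a tumor share 1 array, and it carries no test. After quantile normalization, a comparison also added after the values were seen, 13 of 20 G2/M genes showed it (65%). The share was 12.9% of all genes and 15.8% of genes outside the dimmest 40%. On that scale 18 of 20 G2/M genes were higher in intrakidney tumor 1 than in intrakidney tumor 3 (90%, median 0.20). This held for 12 of 17 S phase genes (70.6%), 39.9% of all genes and 46% of genes outside the dimmest 40%.

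As a list, markers of the surrounding kidney ran against this order, with exceptions. The list of proximal tubule genes, 19 of 22 measured, averaged 6.55, 6.98 and 7.56 in intrakidney tumors, against 6.48, 6.58 and 6.61 in subcutaneous tumors. Of these, the sodium-dependent transporter gene Slc5a12, picked after its values were seen, measured 5.70, 6.47 and 7.46 in intrakidney tumors, against 5.56, 5.72 and 5.70 in subcutaneous tumors. Of the 19, 2 were higher in intrakidney tumor 1 than in intrakidney tumor 3 (10.5%, against 47.3% of all genes). Gatm, 1 of these 2, measured 10.83, 10.38 and 10.26 in intrakidney tumors, against 10.66, 10.67 and 10.68 in subcutaneous tumors. The renal epithelial list, 9 of 10 measured, averaged 8.99, 9.12 and 9.11 in intrakidney tumors, against 9.07, 9.12 and 9.11 in subcutaneous tumors. Its Pax8, a transcription factor of renal epithelium and of Renca, measured 10.08, 10.18 and 10.13 in intrakidney tumors, against 10.15, 10.04 and 10.04 in subcutaneous tumors. Normal tubule also expresses Pax8, and Pax8 was not chosen beforehand. Other genes of the list were less level, such as Epcam (6.31, 6.86 and 6.79 in intrakidney tumors) and Cdh16 (11.66, 11.81 and 11.46). In all, 2 of the 9 were higher in intrakidney tumor 1 than in intrakidney tumor 3. Macrophage genes averaged 10.86, 10.70 and 10.59 in intrakidney tumors, against 10.68, 10.62 and 10.60 in subcutaneous tumors. T cell genes averaged 6.69, 6.63 and 6.47 in intrakidney tumors, against 6.90, 6.75 and 6.82 in subcutaneous tumors. The order of the G2/M genes was also shown by 6 of 11 macrophage genes (54.5%) and 6 of 13 T cell genes (46.2%), against 16.1% of all genes. The part of these marker lists in the order of the G2/M genes was not tested.

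**Figure D4:**
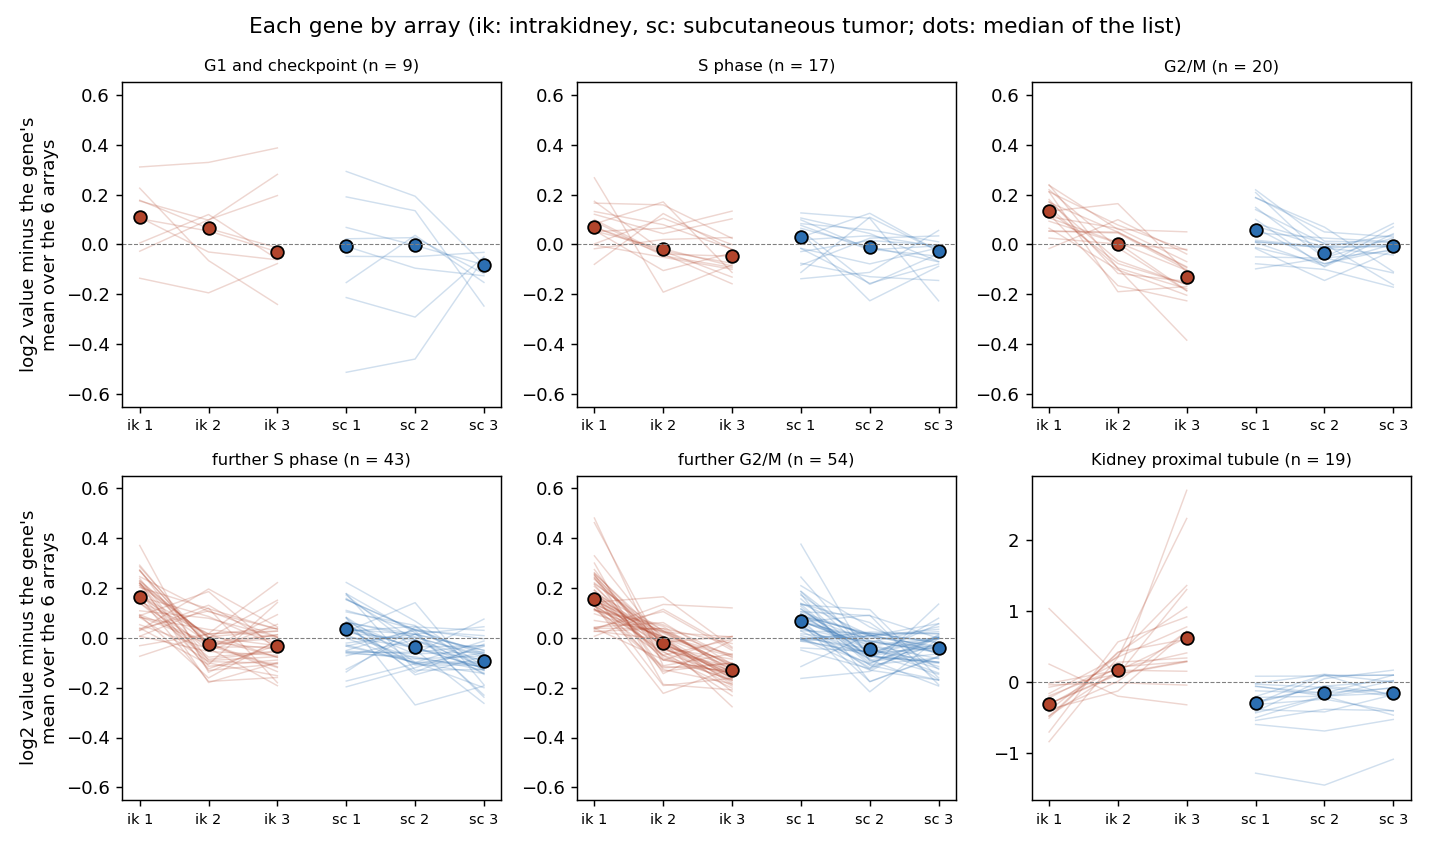
Each gene's log2 value minus its mean over the 6 tumors (vertical axis) in intrakidney tumors (ik) 1 to 3 and subcutaneous tumors (sc) 1 to 3, with 1 line per gene and dots for the median. The G2/M median is 0.13, 0.0036 and -0.13 in intrakidney tumors, and the proximal tubule median, on its own scale, is -0.31, 0.17 and 0.62.

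Other genes of the pathway extended these values. Of a further S phase list, 43 of 45 genes were measured, 34 above 0 (79.1%, against 9564 of all 19938 genes) and 9 below, with a median of 0.070, and none passed the adjusted test. At an unadjusted p under 0.05, 4 lay higher in intrakidney tumors (9.30%, against 4.72% of all genes) and 0 lay lower (against 3.71%). Uhrf1, which couples DNA methylation to replication, measured 10.73, 10.50 and 10.66 in intrakidney tumors, against 10.33, 10.40 and 10.40 in subcutaneous tumors (difference 0.25, limma adjusted p = 0.429). Tk1, the thymidine kinase of the salvage pathway, measured 9.66, 9.57 and 9.49 in intrakidney tumors, against 9.26, 9.33 and 9.42 in subcutaneous tumors (difference 0.23, limma adjusted p = 0.458). Rfc5, a subunit of the clamp loader, differed by 0.18 (limma adjusted p = 0.583). All 3 lay without overlap, among 6 of the list whose intrakidney values were wholly above (14.0%, against 8.41% of all genes). The median of the list rested on intrakidney tumor 1 and was 0.0058 without it. Of the 43 genes, 38 were higher in intrakidney tumor 1 than in intrakidney tumor 3 (88.4%). The order of the G2/M genes within intrakidney tumors was shown by 16 of 43 (37.2%).

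A further G2/M list, measured for 54 of 54 genes, had 30 above 0 and 24 below, with a median of 0.017 and none past the adjusted test. Lmnb1, which encodes lamin B1 of the nuclear envelope, measured 9.15, 9.25 and 9.24 in intrakidney tumors, against 8.96, 8.98 and 9.13 in subcutaneous tumors. It was the 1 gene of that list at an unadjusted p under 0.05 (1.85%, against 4.72% of all genes lying higher; difference 0.19, limma adjusted p = 0.568). Cks1b, a CDK-binding protein, differed by 0.18, and the CDK-activating phosphatase gene Cdc25b by -0.13. On the same arrays, 39 of 54 genes of that list were highest in intrakidney tumor 1 and lowest in intrakidney tumor 3 (72.2%, against 16.1% of all genes). After quantile normalization 34 of 54 showed this order (63%, against 12.9% of all genes). TTTGAA lay in a window of 31 of 46 genes of that list (67.4%, against 20.2% of all genes), and an E2F motif lay in a window of 19 of 34 genes of the further S phase list (55.9%, against 5.33%).

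A further list of G1 control genes holds activators of the cycle, such as Myc, E2f3, Skp2 and Cdc25a, as well as pocket proteins and brakes. Of its 30 genes 29 were measured, with 11 above 0 (37.9%, against 9564 of all 19938 genes) and 18 below, with a median of -0.028 and none past the adjusted test. At an unadjusted p under 0.05, 1 gene lay higher in intrakidney tumors (3.45%, against 4.72% of all genes) and 4 lay lower (13.8%, against 3.71%), namely Trp53inp1, Ccng2, Tfdp2 and Rb1, the last pair being named after their values were seen. Trp53inp1, a p53-induced gene, measured 10.72, 10.68 and 10.61 in intrakidney tumors, against 11.25, 11.17 and 10.81 in subcutaneous tumors. The groups did not overlap, and the difference was -0.41 (interval -0.69 to -0.13, limma adjusted p = 0.379). Ccng2, which encodes the growth-inhibitory cyclin G2, measured 9.57, 9.46 and 9.85 in intrakidney tumors, against 10.02, 10.09 and 9.86 in subcutaneous tumors. It did not overlap either, at -0.36 (interval -0.64 to -0.09, limma adjusted p = 0.424). In all, 3 genes of the list lay wholly below (10.3%, against 6.53% of all genes) and 2 wholly above (6.90%, against 8.41%). Mybl2, which encodes B-Myb, measured 8.99, 9.07 and 9.15 in intrakidney tumors, against 8.86, 8.76 and 8.97 in subcutaneous tumors, a difference of 0.21 (limma adjusted p = 0.559).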

How the data were processed

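Total RNA of 6 tumors, 3 per site, each from a separate mouse per the series design, was measured on Mouse Gene 1.0 ST arrays. The deposited values are log2 expression values from the authors. The submitters' processing notes name RMA and affy, with no version. RMA adjusts background, scales the arrays it is run on together and combines the probes of a cluster, so changes of dim genes are compressed. Genome build and settings are not given in the sources used here, nor is whether all 6 arrays were normalized together, which bears on every difference between arrays. That the scale is log2 follows from the range of 2.31 to 15.07. Array medians lay between 7.08 and 7.11, and precision is limited by there being 6 arrays.

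Of 35512 transcript clusters, the platform annotation paired 21789 with exactly 1 gene. For 999 genes with several clusters the one with the highest mean was taken, which left 19938 genes with no filter on dim values. Pcna has 2 clusters, each with a difference of -0.03. The sites were set against each other in limma 3.58.1 under R 4.3.3 (two-sided, constant prior, no covariate), with Benjamini-Hochberg adjustment over all genes and a threshold of 0.05. The script was tested on simulated data.

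Members and lists were chosen with earlier results of these data known. Array values are given for the 5 members with the lowest unadjusted p in each role and for Mki67, Top2a, Cdk1, Pcna, Mcm2, the D cyclins and Cdkn2a, and of each further list the 3 genes with the lowest p are named. Alternatives covered between-array scaling, dim genes, an offset, the choice of cluster, the prior, array weights, a replicate block and leaving out tumors. Promoters were searched with Python 3.11.15, counting a gene once where any of its windows matched.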

Additional observations from a re-analysis of the deposited data

How the results depend on the processing

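All differences between the sites rest on 3 tumors each, and the count of genes called moved with most choices. Over all genes, 46 passed, against 101 without dim genes, 74 with an offset of 16, 0 with every cluster tested (smallest adjusted p 0.0574, 2206 clusters at an unadjusted p under 0.05), 138 with an intensity trend and robust prior, 624 with array weights, 30 without intrakidney tumors 2 and 3, and 5 at an adjusted p of 0.01. Leaving out 1 tumor gave 2 to 33, with 2, 3 and 4 without subcutaneous tumors 1, 2 and 3 and 21 without intrakidney tumor 1. Of the 46 cell cycle genes, 0 passed, against 1 with the trend and robust prior (Ccnd1) and 2 with array weights (Ccnd1 and Ccnd2), and 0 when any 1 tumor was left out. At an unadjusted p, the 5 higher genes became 8 with the trend and robust prior and 3 to 6 with 1 tumor left out (3 without subcutaneous tumor 3). The 1 lower gene became 7 with array weights, 0 without intrakidney tumors 2 and 3, and 0 to 3 with 1 tumor left out (3 without intrakidney tumor 1, 0 without intrakidney tumor 2 or subcutaneous tumor 1 or 2). The G1 median of 0.085 became 0.046 with array weights, 0.146 without intrakidney tumors 2 and 3, and 0.055 to 0.121 with 1 tumor left out. The S phase median became 0.078 without intrakidney tumors 2 and 3 and -0.038 to 0.035 with 1 tumor left out, and the G2/M median became 0.129 and -0.069 to 0.042, both lowest without intrakidney tumor 1. Array weights turned the sign of both, to -0.036 in S phase and -0.060 in G2/M, each a move within the spread between arrays. The sign of 9 of 46 genes turned with array weights, of 4 to 9 with 1 tumor left out and of 19 without intrakidney tumors 2 and 3. With 1 tumor left out, Ccnd1 differed by 0.60 to 0.83 and Ccnd2 by 0.32 to 0.44. Where intrakidney tumors 2 and 3 were left out, the lone intrakidney tumor is assumed to vary like the other group. Apart from fewer samples or genes, the causes were not tested. With the replicate number as a block, 0 of all genes passed. The labels do not state that same-numbered tumors are pairs, so the numbers were not taken as pairs. Same-numbered tumors correlated at 0.374, -0.159 and 0.104 in their deviations, which with 3 tumors per site cannot decide whether they are pairs.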
